A study of Mus musculus with 39 samples.

Results

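A set of 10 genes of the glutathione system was followed in single cells of the irradiated mouse intestine: *Gsta1*, *Gsta3*, *Gsta4*, *Gstm1*, *Gstp1*, *Mgst1*, *Mgst2*, *Gpx1*, *Gpx2* and *Gpx4*. They were taken by name from a table of 25219 genes, which gives FPKM (fragments scaled to transcript length and to the total mapped fragments of a cell) as well as estimated counts, in 39 cells. The 10 genes were chosen by their levels in these same cells, with the *Gsta* genes set against members found in most cells, so every level below is a description and carries no test. The cells were crypt epithelial cells of mice that carried Lgr5-EGFP-Ires-CreERT2 together with the Rosa-lsl-tdTomato reporter and received tamoxifen 24 h before total body irradiation with 10 Gy, and they were sorted as tdTomato+ Sca1- cells 48 h after it. In this strain, Cre is expressed from the *Lgr5* locus, so that tdTomato marks cells that used *Lgr5* when tamoxifen was given, and their progeny. Both alleles and both treatments were common to all 39 cells. No unirradiated cell was analysed here, so a change upon irradiation was not measured. No animal is named for any cell, so the 39 cells count as 1 biological sample, SDs are over cells, and no p-value is given.

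Glutathione is the main soluble thiol of cells. Glutathione transferases join it to electrophilic compounds, such as lipid aldehydes and drugs, and are grouped in cytosolic classes (alpha, mu, pi and others) and membrane-bound MAPEG proteins, to which *Mgst1* and *Mgst2* belong. Glutathione peroxidases use it to reduce peroxides. GPX1 is the common cytosolic form, GPX2 is the form known from the gut epithelium, and GPX4 reduces lipid hydroperoxides in membranes and is known as the guard against ferroptosis. Several *Gsta* and *Gstm* genes and *Gpx2* are known targets of the transcription factor NRF2, which binds antioxidant response elements, and *Gsta1* is widely used as a marker of absorptive cells.

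The cells held between 398418 and 3903971 estimated counts on genes (median, 3089188) and between 2287 and 5779 genes at 1 FPKM or more. The epithelial markers *Epcam*, *Krt8* and *Krt18* were at 1 FPKM or more in all 39 cells. The 4 markers of stroma and vessel (*Col1a1*, *Col1a2*, *Pdgfra* and *Pecam1*) were listed at 0 in every cell, and of 4 immune markers *Ptprc*, *Cd3e* and *Cd79a* never reached 1 FPKM and *Lyz2* did in 1 cell (1.58 FPKM, cell 63). *Ly6a*, which encodes Sca1, reached 1 FPKM in 4 cells despite the sort, all of them ISC-low as defined in the next paragraph (509 FPKM at the highest, in cell 34). Of the 39 cells, 3 stood apart. Cell 9 had the fewest counts and genes, and cells 79 and 96 had the next fewest genes (2335 and 2988). Cells 79 and 96 each had 5 of 6 tuft cell markers at 1 FPKM or more (among them *Dclk1*, *Trpm5*, *Alox5ap* and *Avil*), with summed levels of 5876 and 7633 FPKM. The highest such sum among the other 37 cells was 17.2 FPKM. Counts over gene lists, and differences whose direction or call turned on these 3 cells, are given with and without them.

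The cells were divided by clustering on 98 genes of an intestinal stem cell (ISC) signature, none of them a member, which separated 22 cells with high signature expression (ISC-high) from 17 cells (ISC-low). The groups are rebuilt and may not hold the same cells as the original clusters. *Olfm4*, a stem cell gene of the crypt base, was found in 22 of 22 ISC-high and 11 of 17 ISC-low cells, found meaning a level of 1 FPKM or more. Cells 9, 79 and 96 were all in the ISC-low group, and 4706 ± 530 genes (SD over cells) were found per ISC-high cell against 4027 ± 1038 per ISC-low cell. Because both groups were drawn from the same cells, differences between them are descriptions too.

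The members lie on 7 chromosomes (coordinates of the deposited table, mouse build mm10/GRCm38). *Gsta4* (chr9:78191966-78209349) and *Gsta1* (chr9:78230669-78242683) are neighbours on the plus strand of chromosome 9, which also carries *Gpx1* (chr9:108339080-108340344). *Gsta3* lies apart from them on chromosome 1 (chr1:21240585-21265575). *Gstm1* (chr3:108012250-108017973) and *Mgst2* (chr3:51661193-51682675) are on chromosome 3. *Mgst1* is at chr6:138140537-138156752, *Gpx4* at chr10:80047166-80056439, *Gpx2* at chr12:76792335-76795554 and *Gstp1* at chr19:4035411-4037912. The 250 bases before the transcription start are shown for *Gsta1* and *Gsta3*, which were found in few cells, and for *Gstp1* and *Mgst1*, which were found in most (RefSeq, GRCm38.p6, 5′ to 3′ on the strand of the gene; *Gsta1*, chr9:78230419-78230668, plus; *Gsta3*, chr1:21240335-21240584, plus; *Gstp1*, chr19:4037913-4038162, minus; *Mgst1*, chr6:138140277-138140526, plus). Capitals mark matches to TGACNNNGC, the core of the antioxidant response element, or to TGANTCA, an AP-1 site.
Gsta1: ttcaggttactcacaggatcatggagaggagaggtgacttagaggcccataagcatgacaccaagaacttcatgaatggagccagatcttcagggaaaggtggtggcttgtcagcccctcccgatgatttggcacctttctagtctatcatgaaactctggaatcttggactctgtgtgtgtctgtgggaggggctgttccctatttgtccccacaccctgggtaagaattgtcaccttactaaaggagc
Gsta3: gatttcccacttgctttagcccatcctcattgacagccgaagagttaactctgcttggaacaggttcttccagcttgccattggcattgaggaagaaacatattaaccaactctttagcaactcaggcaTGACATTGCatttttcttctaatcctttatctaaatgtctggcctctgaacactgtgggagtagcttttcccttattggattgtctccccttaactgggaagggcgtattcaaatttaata
Gstp1: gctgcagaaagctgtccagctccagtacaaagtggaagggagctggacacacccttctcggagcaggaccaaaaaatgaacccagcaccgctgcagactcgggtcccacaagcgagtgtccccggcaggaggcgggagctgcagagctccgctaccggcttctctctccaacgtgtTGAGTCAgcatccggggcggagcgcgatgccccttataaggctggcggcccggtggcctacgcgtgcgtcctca
Mgst1: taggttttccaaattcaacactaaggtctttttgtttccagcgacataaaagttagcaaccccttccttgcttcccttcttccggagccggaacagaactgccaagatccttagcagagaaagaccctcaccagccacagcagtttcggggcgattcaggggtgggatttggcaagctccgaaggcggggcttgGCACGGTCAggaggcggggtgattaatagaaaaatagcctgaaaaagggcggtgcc
Both motifs and CTTTGA, the TCF/LEF core, were searched on both strands in the windows of the 9 members that had one in RefSeq (all but *Gsta4*). TGACNNNGC was found 121 bases before the start of *Gsta3* and, on the opposite strand, 56 bases before that of *Mgst1*. It was present in 10.2% of all 32851 windows of the same length. TGANTCA was found 74 bases before the start of *Gstp1* and 52 bases before that of *Mgst2*, and in 6.75% of all windows. CTTTGA, found in 13.8% of all windows, was in none of the windows of these 9 genes. At both AP-1 matches the pattern TGANTCA was met on either strand, and no window held both kinds of motif. The windows of *Mgst1* and *Mgst2* end 10 and 14 bases upstream of the start used in the deposited table. A match is a matter of letters only, and the genes that held one were both steady and sparse in the cells.

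The members ranged from a very abundant RNA to genes found in 20.5% of them. FPKM is scaled to length, so levels can be compared roughly between genes. For *Gsta1*, *Gstp1* and *Gpx4* they also depend on how fragments of sequence shared with other genes were divided, as described below. *Gpx2* was highest (mean, 2219 FPKM, the 17th highest mean of all genes in the table), followed by *Gstp1* (720 FPKM), *Gpx1* (536 FPKM) and *Mgst1* (427 FPKM). On the log2(FPKM + 1) scale, *Gpx2* averaged 10.54 ± 1.99 (SD, n = 39), *Gstp1* 9.08 ± 1.59, *Gpx1* 8.56 ± 1.90, *Mgst1* 7.49 ± 3.0, *Gpx4* 5.96 ± 1.61 and *Gstm1* 3.99 ± 3.33. Below them were *Mgst2* (2.24 ± 2.51), *Gsta4* (2.0 ± 3.18), *Gsta3* (1.54 ± 2.59) and *Gsta1* (0.96 ± 2.25). No gap between neighbours in this order was larger than the SDs of both genes. *Gpx2* was nevertheless above *Gstp1* in 33 of 39 cells and *Mgst1* above *Gpx4* in 32 of 39, whereas *Gstp1* was above *Gpx1* in 23 of 39.

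**Figure D1:**
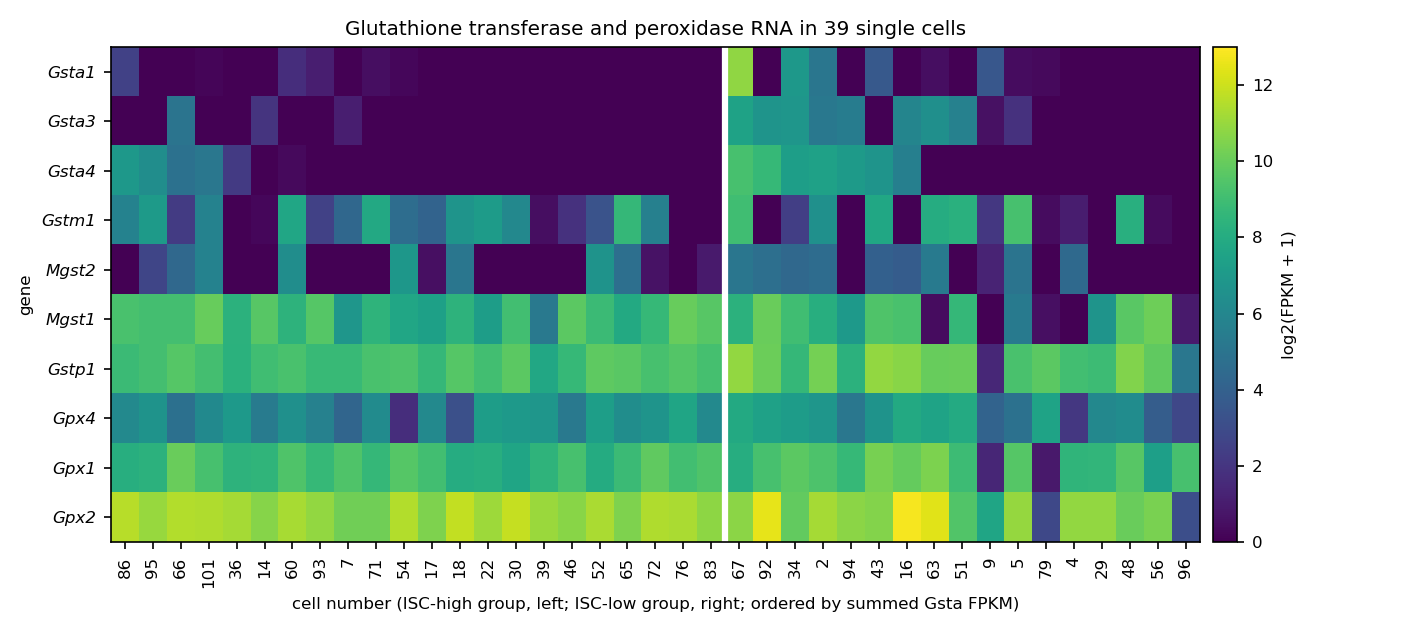
Level of each of the 10 genes (rows) in each of the 39 cells (columns, by cell number) as log2(FPKM + 1), with the 22 ISC-high cells to the left and the 17 ISC-low cells to the right of the white line, ordered by summed *Gsta* FPKM. The lower 5 rows are filled in most cells, whereas the *Gsta* rows are dark in most cells and brightest in cell 67.

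*Gpx2*, *Gstp1* and *Gpx4* were at 1 FPKM or more in 39 of 39 cells (100%; exact 95% binomial interval, 91.0 to 100%, counting error only) and *Gpx1* in 38 of 39. These 4 were the members found in at least 90% of cells. *Mgst1* was found in 34 cells (87.2%; interval, 72.6 to 95.7%), *Gstm1* in 27 (69.2%; 52.4 to 83%) and *Mgst2* in 18 (46.2%; 30.1 to 62.8%). *Gsta3* and *Gsta4* were each found in 12 cells (30.8%; 17 to 47.6%), and *Gsta1* in 8 (20.5%; 9.30 to 36.5%). After thinning each cell to 600000 counts, which left out cell 9, *Gsta1* was found in 6, *Gsta3* in 10 and *Gsta4* in 12 of 38 cells. A transcript lost before amplification is also listed at 0.

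The *Gsta* genes encode the alpha-class subunits, which are known for conjugating lipid peroxidation products such as 4-hydroxynonenal, GSTA4 in particular. At least 1 of the 3 was found in 20 of 39 cells, at least 2 in 9 cells and all 3 in 3 cells (cells 2, 34 and 67). Where found, they were not faint. The median over the cells in which a gene was found was 112 FPKM for *Gsta4* and 46.9 FPKM for *Gsta3*, but 11.2 FPKM for *Gsta1*.

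*Gsta1* was at 1810 FPKM in cell 67, 122 FPKM in cell 34 and 33.1 FPKM in cell 2. It was at 11.6 FPKM in cell 43 and 10.7 FPKM in cell 9, and below 5 FPKM in the 3 ISC-high cells in which it was found. Cell 67 thus held 90.6% of the summed *Gsta1* FPKM, and without it the mean dropped from 51.2 to 4.94 FPKM. *Gsta4* was at 604 FPKM in cell 67, 424 FPKM in cell 92, 173 FPKM in cell 2 and 157 FPKM in cell 34, and between 3.62 and 132 FPKM in the other 8 cells that had it. *Gsta3* was at 176 FPKM in cell 67, 111 FPKM in cell 34, 106 FPKM in cell 92 and 88.2 FPKM in cell 63, and at 59.7 FPKM or less elsewhere. The same cell was the highest for all 3 genes, and its share was far smaller for *Gsta4* (31.6%) and *Gsta3* (24.9%) than for *Gsta1*.

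The 3 *Gsta* genes shared cells only in part. *Gsta3* and *Gsta4* were found together in 7 cells out of the 12 that each had. *Gsta1* shared 5 of its 8 cells with *Gsta4* and 3 with *Gsta3*. Spearman's rho over the 39 cells, given as a description, was 0.47 for *Gsta3* and *Gsta4*, 0.39 for *Gsta1* and *Gsta4* and 0.25 for *Gsta1* and *Gsta3* (median, 0.39). Among the 7 other members the median over 21 pairs was 0.19, from -0.11 (*Gstm1* and *Mgst1*) to 0.46 (*Gstp1* and *Gpx4*). All of these points share library preparation and depth per cell, and the *Gsta* pairs share a majority of cells at 0. With the number of genes found in a cell, Spearman's rho was 0.08 for *Gsta1*, -0.02 for *Gsta3* and 0.08 for *Gsta4*.

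Cell 67 was high in further genes of the system. Of 97 members and related genes averaging 1 FPKM or more, 12 had their highest level in cell 67, and the 3 *Gsta* members by which the cell was singled out are counted among them. Without the members it was 9 of 87 (10.3%), *Gsta2* and *Gstp2* with their shared sequence included, beside 4.47% of all 9804 genes, and nothing is read from the gap because the cell was chosen for its levels. The 12 genes were *Gsta1*, *Gsta2*, *Gsta3*, *Gsta4*, *Gstm4*, *Gstp2*, *Gss*, *Slc7a11*, *Cat*, *Txn1*, *Txnip* and *Eefsec*. *Slc7a11*, the cystine importer that feeds glutathione synthesis, was at 182 FPKM in cell 67 and found in 3 cells in all. *Gss*, glutathione synthetase, was at 1051 FPKM there (median of all cells, 99.4 FPKM) and *Cat*, catalase, at 391 FPKM (median, 4.2 FPKM). *Nfe2l2*, which encodes NRF2, was at 4.76 FPKM in this cell (median, 118 FPKM), and its target *Nqo1* at 0.24 FPKM (median, 0 FPKM). Other NRF2 pathway genes went both ways there. *G6pdx* was at 340 FPKM (median, 4.3 FPKM) and *Taldo1* at 106 FPKM (median, 448 FPKM). Cell 67 also had *Clu* at 304 FPKM, a gene of damage-induced revival stem cells, and *Olfm4* at 485 FPKM. In all, 2 of 4 revival stem cell markers, 1 of 6 stem cell markers and 5 of 8 enterocyte markers were found in the cell. Among the enterocyte markers was *Rbp2* at 570 FPKM. It was singled out after its values were seen.

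Between the rebuilt groups, *Gsta3* and *Mgst1* differed most on the log2(FPKM + 1) scale, in opposite directions (-2.71 and 2.48). Their order rests on cell 67, since without it the differences were -2.43 and 2.62. *Gsta3* was found in 3 of 22 ISC-high cells (13.6%; 2.91 to 34.9%) and 9 of 17 ISC-low cells (52.9%; 27.8 to 77.0%). Its FPKM in ISC-high cells was 0 at the lowest, 0 at the median and 31 at the highest, and in ISC-low cells 0, 2.57 and 176. The mean log2 level was 0.36 ± 1.13 (SD, n = 22) in ISC-high and 3.07 ± 3.14 (n = 17) in ISC-low, a difference of -2.71. The ranges overlapped, since both groups held cells without the gene.

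*Gsta4* was found in 5 of 22 and 7 of 17 cells, with a highest value of 120 FPKM in ISC-high and 604 FPKM in ISC-low cells and a median of 0 in both. Its mean log2 level was 1.18 ± 2.33 against 3.07 ± 3.85, a difference of -1.89. *Gsta1* was found in 3 of 22 and 5 of 17 cells, with highest values of 4.66 and 1810 FPKM and a difference of -1.56, which was -0.997 without cell 67 and so just under 1 in size. For both genes the intervals of the shares overlapped widely (for *Gsta1*, 2.91 to 34.9% and 10.3 to 56%). Cells with 2 or 3 *Gsta* genes were 2 of 22 in ISC-high (9.09%; 1.12 to 29.2%) and 7 of 17 in ISC-low (41.2%; 18.4 to 67.1%), and thinning to equal counts left these at 2 of 22 and 7 of 16.

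Of the 10 members, 3 were higher in ISC-low cells by at least 1 on the log2 scale, the 3 *Gsta* genes. This was so for 3.35% of the 9804 genes that averaged 1 FPKM or more. In the other direction 2 members, *Mgst1* and *Gpx2*, were higher in ISC-high cells by at least 1, as were 19.2% of all genes. Counted in either direction, 5 of 10 members and 22.5% of all genes passed. The median difference was -0.01 over the members and 0.28 over all genes, and without cells 9, 79 and 96 it was -0.53 and 0.16. Without cells 9, 79 and 96, *Gpx2* no longer passed (0.12), *Mgst1* did (1.28), and the 3 *Gsta* genes differed by -1.68, -3.32 and -2.55 in the order of their numbers. Over all 9622 genes that averaged 1 FPKM or more without these cells, 13.9% were then higher in ISC-high and 5.35% in ISC-low cells. By the log2 ratio of mean FPKM, the 3 *Gsta* genes passed and neither *Mgst1* (0.44) nor *Gpx2* (0.12) did, while 42.1% of all genes passed in either direction.

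**Figure D2:**
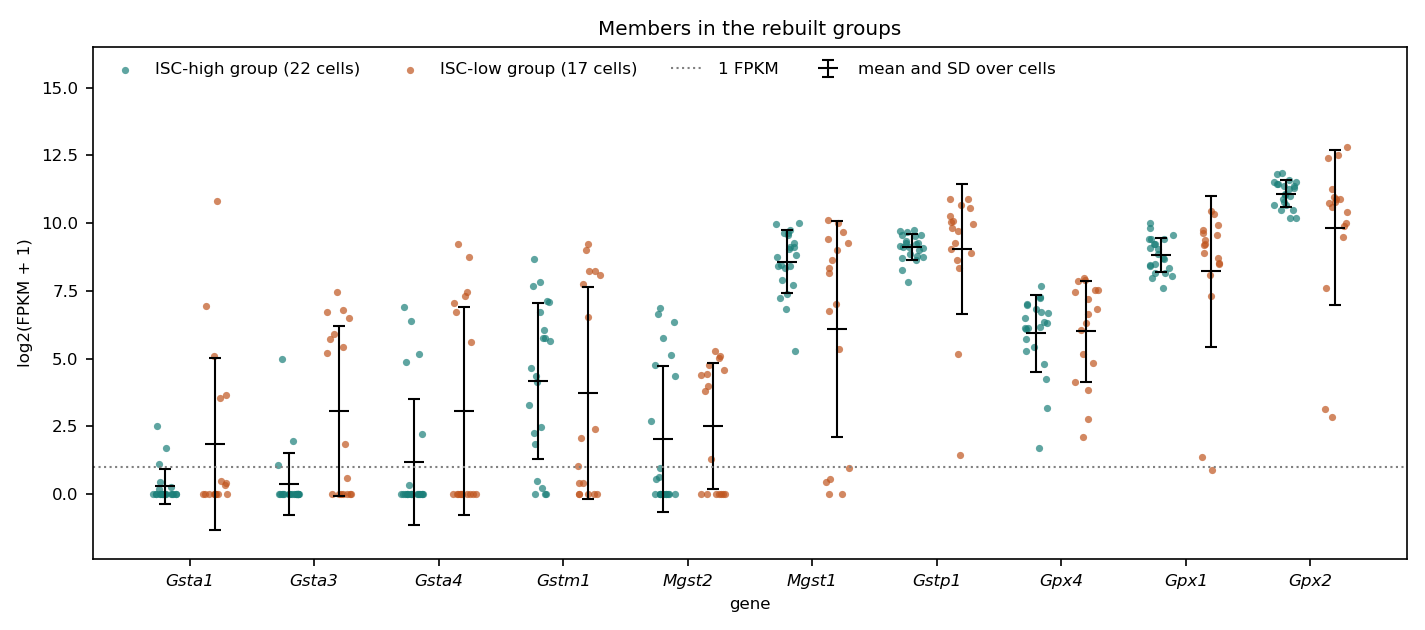
Each point is 1 cell, with log2(FPKM + 1) on the vertical axis and the 10 genes on the horizontal axis, ISC-high cells (22) to the left and ISC-low cells (17) to the right for each gene, and with bars for the mean and SD over cells. *Gpx2*, *Gstp1* and *Gpx1* form narrow bands in ISC-high cells, and in ISC-low cells a few points lie far below the rest.

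**Figure D3:**
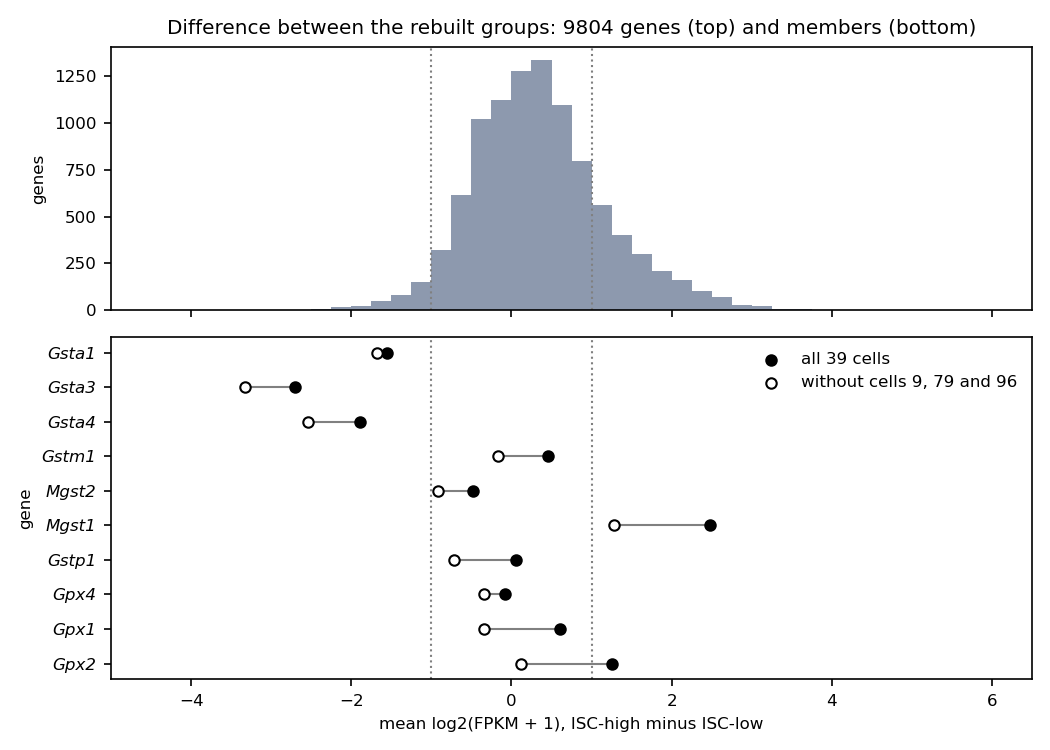
Difference in mean log2(FPKM + 1), ISC-high minus ISC-low, for 9804 genes as a histogram (top, number of genes) and for the 10 members (bottom), with all 39 cells (filled) and without cells 9, 79 and 96 (open). Dotted lines mark -1 and 1. The *Gsta* genes lie left of -1 either way, whereas *Gpx2* moves from 1.26 to 0.12.

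Of the members found in nearly every cell, *Gstp1*, *Gpx2* and *Gpx1* varied least among ISC-high cells and *Gpx4* more. *Gstp1*, the pi-class transferase, ranged from 224 to 862 FPKM (median, 560 FPKM) over the 22 ISC-high cells, an SD of 0.48 on the log2 scale. In ISC-low cells it ranged from 1.69 to 1883 FPKM (median, 909 FPKM), and the difference in mean log2 level was 0.06. Its 2 lowest values, 1.69 and 34.7 FPKM, were in cells 9 and 96. Without cells 9, 79 and 96, *Gstp1* averaged 9.82 ± 0.84 in ISC-low (n = 14) and 9.10 ± 0.48 in ISC-high cells, a difference of -0.71 in the direction of the *Gsta* genes.

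*Gpx1* ranged from 196 to 1033 FPKM in ISC-high cells (median, 441 FPKM; log2 SD, 0.64) and from 0.83 to 1392 FPKM in ISC-low cells (median, 586 FPKM). Its 2 values below 100 FPKM were those of cell 79 (0.83 FPKM) and cell 9 (1.60 FPKM). The difference in mean log2 level was 0.60, and -0.34 without the 3 cells. *Gpx4* ranged from 2.23 to 202 FPKM (median, 74.2 FPKM) in ISC-high and from 3.32 to 248 FPKM (median, 100 FPKM) in ISC-low cells, with a difference of -0.08. It was at a lower FPKM than *Gpx1* in all cells but 9 and 79, and its log2 SD in ISC-high cells was larger (1.42). Without the 3 cells its difference was -0.34.

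*Gstm1*, a mu-class transferase, ranged from 0 to 407 FPKM (median, 21.8 FPKM) in ISC-high cells, where 17 of 22 had it, and from 0 to 599 FPKM (median, 3.24 FPKM) in ISC-low cells, where 10 of 17 had it. Its difference was 0.45 with all cells and -0.17 without the 3 cells. All 8 cells with *Gsta1* also had *Gstm1*, which was found in 27 of 39 cells. *Mgst2*, which is known to make leukotriene C4 besides its transferase activity, was found in 8 of 22 ISC-high and 10 of 17 ISC-low cells, at no more than 116 FPKM, and differed by -0.48, or by -0.92 without the 3 cells. *Gstm1* and *Mgst2* were thus missing from many cells too, but differed by less than 1 between the groups. The mean log2 SD over all cells was 2.67 for the 3 *Gsta* genes and 2.28 for the 7 others, a gap of 0.40 that was 0.06 without cell 67 and 1.04 without cells 9, 79 and 96. With a pseudocount of 10 FPKM in place of 1 the gap was -0.091, with the opposite sign.

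*Gpx2* and *Mgst1* were missing or nearly so in particular cells. *Gpx2* ranged from 1176 to 3711 FPKM (median, 2313 FPKM) in ISC-high cells. In ISC-low cells it ranged from 6.09 to 7147 FPKM (median, 1710 FPKM) and was at 6.09 FPKM in cell 79 and 7.74 FPKM in cell 96, the cells with tuft markers. The next lowest were cell 9 (196 FPKM) and cell 51 (720 FPKM). *Gpx2* was also highest in this group, at 7147 FPKM in cell 16, 5884 FPKM in cell 92 and 5462 FPKM in cell 63.

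*Mgst1*, which encodes a transferase of the endoplasmic reticulum and outer mitochondrial membrane, was found in 22 of 22 ISC-high cells (37.5 to 1022 FPKM; median, 441 FPKM) and 12 of 17 ISC-low cells (0 to 1103 FPKM; median, 282 FPKM). The 5 cells below 1 FPKM were all ISC-low, and none of the 39 cells lay between 0.94 and 37.5 FPKM. They were cells 4 and 9 (both 0), 63 (0.35 FPKM, 1 estimated count), 79 (0.46 FPKM, 1 count) and 96 (0.94 FPKM, 3 counts). Cells 79 and 96 were those with tuft markers. Cells 63 and 4 had the highest and the third highest summed levels of 7 goblet cell markers, 41329 and 10225 FPKM, and cell 5, with the second highest sum (26749 FPKM), had *Mgst1* at 39.5 FPKM, next to the lowest level above 1 FPKM (37.5 FPKM, cell 39). In order of the goblet sum, the next were cell 65 (4817 FPKM, *Mgst1* at 241 FPKM), cell 9 (2022 FPKM, *Mgst1* at 0) and cell 92 (860 FPKM, *Mgst1* at 1030 FPKM). The sum of 6 Paneth cell markers was 4479 FPKM in cell 63 and 4303 FPKM in cell 9, and its highest value was 12674 FPKM in cell 56, the cell with the most *Mgst1* (1103 FPKM). Over all 39 cells, Spearman's rho with the goblet sum was -0.24 for *Mgst1*, 0.36 for *Gpx2* and 0.37 for *Mgst2*. In cell 63 *Agr2*, a disulfide isomerase needed for mucin, was at 23329 FPKM and *Muc2*, the main intestinal mucin, at 387 FPKM. *Gpx2* was at 5462 FPKM in cell 63, 1913 FPKM in cell 4 and 1975 FPKM in cell 5, so that *Mgst1* was low in these cells while *Gpx2* was not. These cells were picked after their values were seen. The part of goblet or tuft cell RNA, or of a low number of genes found, in the *Mgst1* difference between the groups was not tested.

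**Figure D4:**
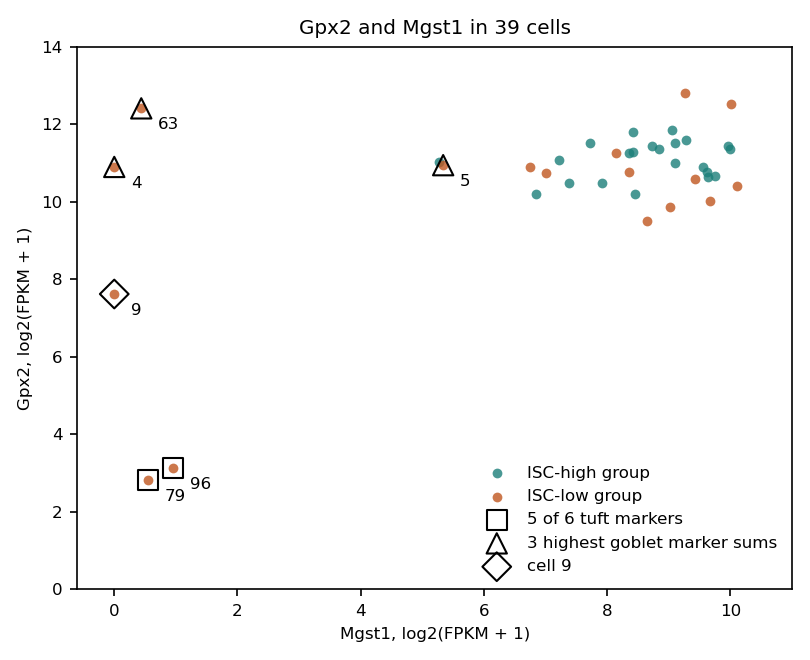
*Gpx2* against *Mgst1*, both as log2(FPKM + 1), with 1 point for each of the 39 cells, coloured by rebuilt group. Squares mark the cells with 5 of 6 tuft markers, triangles the 3 cells with the highest goblet marker sums and the diamond cell 9. The squares lie low on both axes, whereas cells 4 and 63 lie low for *Mgst1* alone.

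The tuft marker cells had *Gsta1*, *Gsta3*, *Gsta4*, *Gstm1* and *Mgst2* below 1 FPKM, but so did cells 29, 39, 56, 76 and 83. The tuft marker cells differed from each other in 3 members. *Gpx1* was at 0.83 FPKM in cell 79 and 603 FPKM in cell 96. *Gpx4* was at 183 FPKM in cell 79 and 5.86 FPKM in cell 96, and *Gstp1* at 840 and 34.7 FPKM. Both had much *Mgst3*, a further MAPEG gene, at 4432 FPKM in cell 79 and 1343 FPKM in cell 96 (median of all cells, 177 FPKM). *Hpgds*, which encodes a sigma-class transferase that makes prostaglandin D2 and is known from tuft cells, was at 391 FPKM in cell 96 and listed at 0 in cell 79.

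Several members share sequence with other genes, which bears on how the fragments could be divided between them. Of the 100-base windows (the read length of the study) in the GENCODE M21 transcript of *Gsta1*, 81.8% occur identically in a transcript of another gene, 71.3% in *Gm3776*, 19.8% in *Gsta2* and 13.3% in *Gm10639*. The share was 52.8% for *Gstp1* (*Gstp2*), 48.4% for *Gpx4* (a pseudogene copy, not analysed here), 7.73% for *Gstm1* and 5.17% for *Gpx2* (*Gpx2-ps1*). It was 0% for *Gsta3*, *Gsta4*, *Gpx1*, *Mgst1* and *Mgst2*. Estimated counts of *Gsta1* were fractions in several cells, such as 4.33 in cell 93.

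The level of *Gsta1* is therefore uncertain against its copies. *Gm3776* was at 1453 FPKM in cell 67, 105 FPKM in cell 34 and 36.5 FPKM in cell 2, close to *Gsta1* itself. It was found in 9 cells, 7 of them with *Gsta1*. In 3 cells *Gm3776* and *Gm10639* had equal values to within 0.01%, above 0. The sum of *Gsta1*, *Gm3776* and *Gm10639* reached 1 FPKM in 11 of 39 cells, and cell 67 held 89.2% of it. *Gsta2* was found in 4 cells, at most 38.2 FPKM (cell 67).

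*Gstp2* was at 1 FPKM or more in 38 cells, with a median of 127 FPKM. In the 37 cells with *Gstp1* at 100 FPKM or more it was between 14.7 and 52.1% of *Gstp1* (median, 18.6%). *Gpx2-ps1* was between 0.42 and 1.31% of *Gpx2* (median, 0.79%) in the 37 cells with *Gpx2* at 100 FPKM or more. *Gsta3* and *Gsta4*, which differed by -2.71 and -1.89 between the groups, share no such window with another gene.

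**Figure D5:**
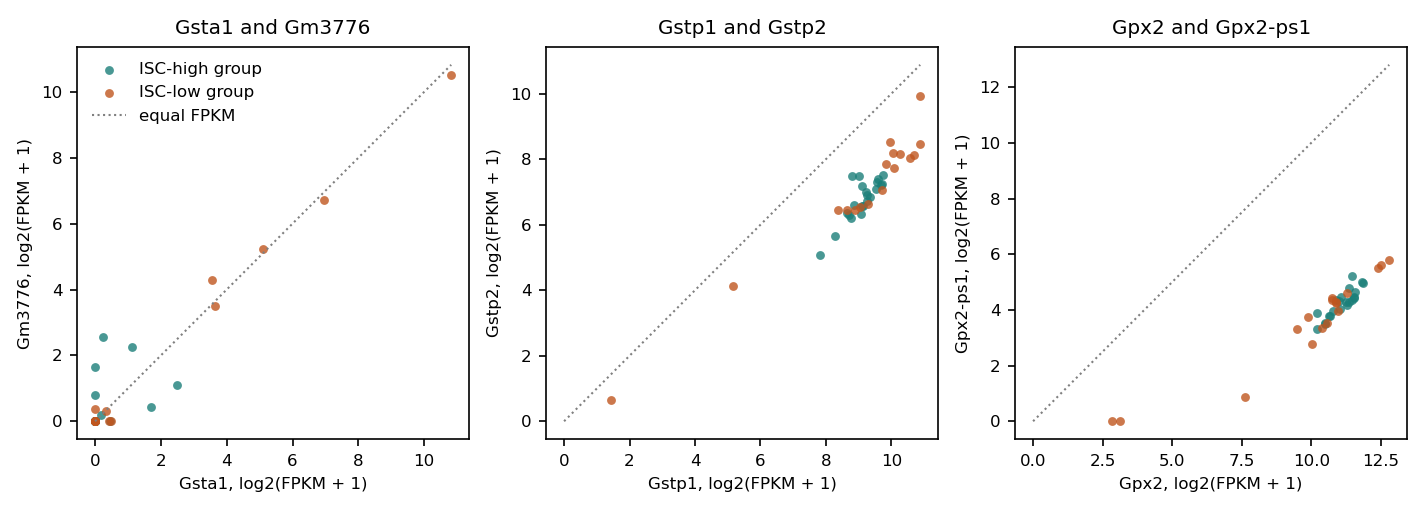
Level of a close copy (vertical) against that of the member (horizontal), both as log2(FPKM + 1), for *Gsta1* and *Gm3776*, *Gstp1* and *Gstp2*, and *Gpx2* and *Gpx2-ps1*, with 1 point per cell coloured by rebuilt group and a dotted line at equal FPKM. *Gm3776* lies near the line in the cells with most *Gsta1*, *Gstp2* below it and *Gpx2-ps1* far below it.

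The genes closest to each member over the 39 cells were sought by Spearman's rho among 3660 other genes found in at least 20 cells, for the 6 members found in as many cells. The closest were the copies *Gstp2* for *Gstp1* (0.89) and *Gpx2-ps1* for *Gpx2* (0.92), which share sequence with them. Ribosomal protein genes came next, *Rps28* (0.64) and *Rps29* (0.60) for *Gstp1* and *Rps9* (0.67) for *Gpx2*. For *Gpx1* they were *Itgb1* (0.60), *Gpi1* (0.60) and *Myadm* (0.58), and for *Gpx4* they were *Ecsit* (0.50), *Zyx* (0.50) and *Ergic3* (0.49). For *Mgst1* they were *Atp5c1* (0.55), a subunit of ATP synthase, *Ccl25* (0.55), a chemokine of the small intestine, and *Ccnd1* (0.54), which encodes cyclin D1. For *Gstm1* they were *Nme1* (0.58), *Dnajc19* (0.57) and *Kxd1* (0.57). Members were not compared with each other here.

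Of the 25 other glutathione transferase and peroxidase genes in the table, 19 averaged 1 FPKM or more, and *Gpx5*, *Gpx6*, *Gpx7*, *Gpx8* and *Gstt4* were listed at 0 in every cell. The most abundant were *Mgst3* (421 ± 763 FPKM, SD, 36 cells), *Gsto1* (168 ± 154 FPKM, 38 cells), an omega-class gene, *Gstp2* (165 ± 159 FPKM, 38 cells) and *Gstm5* (61.6 ± 78.7 FPKM, 26 cells). *Gpx3*, the secreted peroxidase, was found in 1 cell (cell 5, 540 FPKM). Of the 19 genes, 2 were higher in ISC-high cells by at least 1, *Gstz1* (2.01; 13 of 22 and 3 of 17 cells), which acts in tyrosine breakdown, and *Gstt1* (1.24). In the other direction, *Gstm4* (-1.11) and *Gstm7* (-1.08) passed, and 15 did not pass. The difference of *Gstm4* rests on cell 67 (456 FPKM) and was -0.65 without it. All genes passed at 19.2% in the first and 3.35% in the second direction. The median was -0.08. Without cells 9, 79 and 96, 2 were higher in ISC-high and 3 in ISC-low cells, the added gene being *Gsto1* (-1.12, and -0.39 with all cells), against 13.9% and 5.35% of all genes. *Gstt2* (41.5 FPKM), *Gstt3* (32.7 FPKM), *Gstm2* (32.1 FPKM) and *Gstz1* (31.3 FPKM) were of middle abundance, and *Gstm3*, *Gstk1*, *Gstt1*, *Gstm6*, *Gstm7* and *Gstcd* were found in 4 to 12 cells.

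Of 18 genes of glutathione synthesis, recycling and export, 4 were higher in ISC-high cells by at least 1 and none in ISC-low cells, near the shares of all genes (19.2% and 3.35%). They were *Glrx* (1.73), *Glo1* (1.3), *Glrx5* (1.07) and *Gsr* (1.04), which encode glutaredoxins, glyoxalase 1 and glutathione reductase. Without cells 9, 79 and 96, 0 of 18 were higher in ISC-high cells and 1 was higher in ISC-low cells (*Gclc*, -1.02, and -0.56 with all cells). *Gss* (182 FPKM), *Glrx* (156 FPKM), *Glo1* (136 FPKM) and *Glrx3* (84.2 FPKM) were the most abundant. *Gclc* and *Gclm*, the subunits of the enzyme that limits synthesis, averaged 9.89 and 5.97 FPKM and were found in 19 and 18 cells. *Chac1* and *Ggt1*, which break glutathione down, were listed at 0 in every cell.

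Of 12 thioredoxin and peroxiredoxin genes, 5 were higher in ISC-high cells by at least 1 (*Txn2*, *Prdx2*, *Prdx3*, *Prdx4* and *Prdx6*, by 1.09 to 1.64) and *Prdx5* was lower (-1.73). Without the 3 cells, 1 of 12 was higher in ISC-high and 1 in ISC-low cells, beside a fall from 19.2 to 13.9% over all genes in the share higher in ISC-high cells. *Prdx1* (1343 FPKM), *Prdx2* (641 FPKM), *Prdx6* (427 FPKM) and *Txn2* (372 FPKM) had the highest means. Of superoxide dismutases and catalase, *Sod1* was abundant in both groups (1796 FPKM, difference 0.47, and -0.08 without the 3 cells), whereas *Sod2*, the mitochondrial form, was found in 22 of 22 ISC-high and 12 of 17 ISC-low cells (difference 2.50, and 2.01 without the 3 cells). *Cat* was found in 23 cells (58.7 FPKM) and differed by -0.51, or by -1.30 without the 3 cells.

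Of 18 NRF2 pathway genes averaging 1 FPKM or more, 2 were higher in ISC-high cells (*Nqo1*, 2.0, and *Tkt*, 1.33) and 2 in ISC-low cells (*Aldh1a1*, -1.62, and *Me1*, -1.50). The shares over all genes were 19.2% and 3.35%. The median was -0.14, against 0.28 over all genes. Without the 3 cells, when these shares were 13.9% and 5.35%, 1 gene was higher in ISC-high cells (*Nqo1*, 1.75) and 4 were higher in ISC-low cells (*Me1*, -1.83, *Aldh1a1*, -1.76, *Ephx1*, -1.20, and *Gclc*, -1.02), and the median was -0.52, against 0.16 over all genes. The ferritin genes *Ftl1* (1891 FPKM) and *Fth1* (578 FPKM), *Taldo1* (410 FPKM) and *Nfe2l2* itself (153 FPKM) were the most abundant. The difference of *Nfe2l2* was 0.23 with all cells and -0.65 without the 3 cells. *Hmox1*, a classical NRF2 target, was found in 3 cells. GPX1, GPX2 and GPX4 contain selenocysteine, and none of 8 genes of selenoprotein synthesis differed by 1 or more between the groups, with or without the 3 cells, although *Eefsec* did without cell 67 (1.05, and 0.65 with it). Of these, *Sephs2* was found in 39 cells (31.3 FPKM), *Trnau1ap* in 19 (17.4 FPKM), *Pstk* in 16 (15.4 FPKM) and *Sephs1* in 21 (13.8 FPKM).

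Markers of other crypt and villus cells moved with some members. Over 39 cells, Spearman's rho with the summed level of 4 revival stem cell markers was 0.07 for *Gsta1*, 0.57 for *Gsta3* and 0.27 for *Gsta4*, and it was 0.37 for *Gpx1*. With the sum of 8 enterocyte markers it was 0.43 for *Gsta1*, 0.10 for *Gsta3* and 0.25 for *Gsta4*. With the sum of 6 stem cell markers it was -0.42 for *Gsta1*, -0.47 for *Gsta3* and -0.38 for *Gsta4*, and it was also negative for *Gstp1* (-0.35), *Gpx4* (-0.31), *Gpx1* (-0.29), *Mgst2* (-0.23) and *Gstm1* (-0.18). The points share depth and library preparation. The revival sum was between 0 and 126 FPKM (median, 0.59 FPKM) in ISC-high and between 0 and 1453 FPKM (median, 25.8 FPKM) in ISC-low cells. *Clu* was highest in cell 92 (1124 FPKM) and *Ly6a* in cell 34 (509 FPKM), both cells with *Gsta3* and *Gsta4*. The enterocyte sum was between 68.2 and 1297 FPKM (median, 413 FPKM) in ISC-high and between 9.97 and 41011 FPKM (median, 459 FPKM) in ISC-low cells. Its highest value was nearly all *Fabp1* in cell 79, which had 3 of 8 enterocyte markers and in which no *Gsta* gene was found. The most such markers in a cell, 5 of 8, were in cells 2, 34, 43 and 67, which had the highest *Gsta1* levels. *Gsta1* was also found in cells 9, 60, 86 and 93, with 4, 3, 3 and 1 of these markers. The part of these cell types in the *Gsta* levels was not tested.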

How the data were processed

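RNA of 39 single cells was measured by full-length RNA sequencing (C1 capture, SMARTer and Nextera XT kits, paired-end 100-base reads). The methods of the study state that capture sites were inspected for single cells. No doublet caller was run, and no cell was left out of the main values. Per the labels, the authors used bcl2fastq 1.8.4, TopHat2 2.0.14 and build mm10/GRCm38. The counting tool and annotation are not given in the sources used here. The authors deposited FPKM values, normalized per cell and transcript length, and estimated counts per gene, not normalized. Each value column was matched to a cell by its title. FPKM divides by a total per cell of which genes held between 33.4 and 95.2%, as computed here from both columns.

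Levels are log2(FPKM + 1), so the pseudocount is 1 FPKM, and a gene was called found from 1 FPKM, and estimated counts, rounded, were used for depth and thinning. There are no molecular identifiers, so intervals (exact Clopper-Pearson, 95%) cover counting error only, and a share of 0 of 22 cells allows up to 15.4%. The ISC signature came from a supplementary table of the study and was clustered by Euclidean distance with complete linkage. A difference of at least 1 in mean log2 level was counted, with genes averaging 1 FPKM or more as the background. No count model was fitted, since the cells are not replicates. Named genes were the members, the 3 genes closest to each member found in at least 20 cells, other genes of the family at a mean of at least 1 FPKM and up to 4 genes with the highest mean of each list. Some genes that the rule or the marker lists name are not reported here. Genes named beyond that rule, such as *Hmox1* or *Slc7a11*, were chosen after their values were seen. The members, lists and alternatives were chosen with earlier results of these data known. Scripts ran in Python 3.11.15 with pandas 2.3.3 and scipy 1.17.1 and were tested on simulated data.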

Additional observations from a re-analysis of the deposited data

How the results depend on the processing

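Of 45 recomputations of 6 summaries of the members and the background, 37 stayed within 1.5 times the value given (counts and shares) or within the spread over genes or pairs (others). For the gap in log2 SD this spread was 0.69, wider than the gap of 0.40 itself. Values of 0.06 and 1.04 thus counted as within it, and the count of 37 is no sign that the gap is stable. The number of members found in at least 90% of cells was 4 or 5 under every setting tried. With a pseudocount of 0.1 FPKM the gap in log2 SD between the *Gsta* genes and the others was 1.19 and the share of all genes past a difference of 1 was 42.9%. With 10 FPKM the gap was -0.091, the reverse in sign, and the share 5.82%. By the log2 ratio of mean FPKM, 3 members and 42.1% of all genes passed, and *Gsta1* differed by -6.40. With a mean of at least 10 FPKM, 38.3% of all genes passed. By Pearson's r on log2(FPKM + 1), the median over the *Gsta* pairs was 0.58. The median difference over all genes was 0.51 with a pseudocount of 0.1 FPKM, 0.10 with 10 FPKM and 0.39 after rescaling FPKM to 1000000 per cell. Leaving out cells with tuft markers or the cell with the most *Gsta1*, for members and gene lists, was added after the data were seen. *Gsta3* and *Gsta4* differed by -1 or more in size under all 9 settings tried for single genes, *Gsta3* from -4.15 to -1.36 and *Gsta4* from -2.88 to -1.21. *Gstm1*, *Gstp1*, *Gpx1*, *Gpx4* and *Mgst2* each had differences of both signs over these settings. Ward linkage gave the same cells per group. No paired analysis was possible because the labels give 1 group and no test was run. A mean over 17 cells with SDs near 3 on the log2 scale does not resolve differences near 1 or below. The cutoff of 1 served for counting and is not a measure of certainty.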

Other observations

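Genes that p53 activates after DNA damage were, at the median, higher in ISC-low cells. Of 9 such genes averaging 1 FPKM or more, 4 were higher in ISC-low cells by at least 1, as were 3.35% of all genes, and 0 in ISC-high cells. *Cdkn1a*, which encodes the cell cycle inhibitor p21, was found in 12 of 22 ISC-high and 17 of 17 ISC-low cells (mean log2, 2.91 ± 3.01 and 5.97 ± 2.04, SD). *Trp53inp1* (-2.14), *Mdm2* (-1.49), which limits p53, and *Ccng1* (-1.16) were the others. The median was -0.85, against 0.28 over all genes. Without cells 9, 79 and 96, 5 of 9 passed, as did 5.35% of all genes. *Ccng1* (86.4 FPKM), *Cdkn1a* (76.2 FPKM), *Bax* (69.0 FPKM) and *Mdm2* (38.9 FPKM) had the highest means.

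Of 6 genes that act with *Gpx4* in ferroptosis, 3 were higher in ISC-high cells by at least 1, as were 19.2% of all genes. They were *Tfrc* (2.60), the transferrin receptor, *Lpcat3* (1.49), which loads membranes with polyunsaturated lipids, and *Ncoa4* (1.32), which brings ferritin to lysosomes. Without cells 9, 79 and 96, 2 of 6 passed, *Tfrc* at 1.93 and *Lpcat3* at 1.02, as did 13.9% of all genes. *Tfrc* (87.6 FPKM), *Lpcat3* (32.5 FPKM), *Ncoa4* (28.2 FPKM) and *Slc7a11* (4.90 FPKM) had the highest means, the last resting on cell 67, without which it was 0.24 FPKM. *Acsl4*, which prepares lipids for this form of death, was found in 12 cells and was highest in cell 96 (45.6 FPKM), a cell with tuft markers.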
